A study of Mus musculus with 17 samples.

Results

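T lymphocytes were found in every kidney library of this series, and they are described here across aristolochic acid (AA) treatment and the SARA transgene. A cell was counted as a T cell when it held at least 200 detected genes, at most 20% mitochondrial UMIs, at least 2 UMIs of Cd3d, Cd3e and Cd3g together, no UMI of the B cell genes Cd79a and Ms4a1, and at most 1 UMI of the macrophage genes C1qa, C1qb and C1qc. The members were thus chosen by measured Cd3, B cell and macrophage UMIs. A UMI (unique molecular identifier) stands for 1 captured RNA molecule. The rule found 17295 T cells among 61744 kidney cells that passed the filters on genes and mitochondrial UMIs, in 9 libraries, of 91829 such cells in the 17 libraries of kidney and skin. Cells with a Cd4 UMI and none of Cd8a or Cd8b1 (3412) are called CD4 T cells, those with a Cd8a or Cd8b1 UMI and no Cd4 UMI (7763) CD8 T cells, 492 cells had both and 5628 had neither. The levels of these genes are therefore a description and not a finding.

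The libraries were made by droplet sequencing of GFP+ cells sorted from Liberase-digested kidneys of mice that carry PDGFRb-Cre and the Z/EG reporter, which turns from lacZ to GFP where Cre has acted. All mice carried both alleles, and by the study's methods this Cre is also active in leukocytes, so GFP marks the history of a cell and not present Pdgfrb expression. SARATg mice (here Tg) add a SARA cDNA of human origin in the Rosa26 locus behind a CAG promoter and a floxed stop, so that Cre-positive cells express it. SARA, encoded by ZFYVE9, is a FYVE domain protein of endosomes named as an anchor for Smad proteins. SARAWT mice (here WT) lack this transgene. At 8 weeks of age mice received AA, a plant nephrotoxin whose adducts damage DNA in tubule cells, at 5 mg/kg by intraperitoneal injection 3 times a week for 3 weeks, or vehicle by the same route. There were 3 WT vehicle libraries, 3 libraries labelled WT AA, 2 Tg vehicle libraries and 1 library labelled Tg AA. The labels do not say whether each library is 1 animal, so p-values measure the spread between these libraries, which may be in part technical.

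T cells recognise peptides on MHC molecules through a receptor of α and β or of γ and δ chains, which signals through the CD3 subunits. CD8 T cells see class I MHC and kill target cells with granzymes and perforin, while CD4 T cells see class II MHC and act on other leukocytes through cytokines and surface ligands, and a Foxp3+ subset of them restrains immune responses. In the kidney, resident and infiltrating T cells are a known part of the response to tubular injury.

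The library labels were first checked against the transgene. Over all kept cells, Zfyve9 (ENSMUSG00000034557, chromosome 4 from 108637466 to 108780798 of GRCm38, minus strand) stood at 26.6, 32.1 and 10.4 CPM (UMI counts of the gene scaled to 1000000 UMIs of the library's summed cells) in WT vehicle 1 to 3 and at 100.4 and 96.3 CPM in Tg vehicle 1 and 2. The library labelled WT AA 1 had 163 CPM, WT AA 2 and 3 had 12.3 and 13.05 CPM, and the library labelled Tg AA 1 had 20.6 CPM. In T cells alone it was 13.01, 15.9 and 3.09 CPM in WT vehicle, 84.9, 1.26 and 4.097 CPM in the libraries labelled WT AA 1 to 3, 50.2 and 45.8 CPM in Tg vehicle and 5.897 CPM in the library labelled Tg AA 1. The transgene is a human cDNA, and how much of its RNA is counted under the mouse gene was not tested. The libraries labelled WT AA 1 and Tg AA 1 thus go against their genotype labels, which bears on every direction drawn from them, although both labels name the same treatment. Xist, which is expressed in female cells, stood at 1411 CPM in WT vehicle 2, at 1356 CPM in the library labelled Tg AA 1 and at or below 0.502 CPM elsewhere, so sex is mixed within WT vehicle and cannot be told apart from group for the only library labelled Tg AA. Pdgfrb RNA was at or below 3.44 CPM in every library.

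T cell numbers were 373, 486 and 3300 in WT vehicle 1 to 3, 3895, 1977 and 3195 in the libraries labelled WT AA 1 to 3, 982 and 824 in Tg vehicle 1 and 2 and 2263 in the library labelled Tg AA 1. Their summed UMIs ran from 1691435 to 19533059 per library and the median UMIs of a T cell from 2720 to 4955. Between 1.66% and 2.13% of a library's barcodes also occurred in another kidney library. WT vehicle 3 stood apart from the other WT vehicle libraries. Over the 2797 genes compared, the summed T cell profile of WT vehicle 3 had r = 0.987, 0.944 and 0.964 with the libraries labelled WT AA 1 to 3, and r = 0.813 and 0.817 with WT vehicle 1 and 2 (across genes, which are not independent replicates). It was kept as labelled. The main counts, and part of the list and named gene calls that turn on it, are also given without it. Those values are descriptions, because the library was singled out after its values were seen. Below, values of a group are listed in replicate order, so the first WT AA value is always that of the library labelled WT AA 1.

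The T cell label held up on genes that the rule did not use. T cell receptor constant regions Trac, Trbc1 and Trbc2, the kinase Lck and the adaptor Lat were each higher in T cells than in all other kept cells in 9 of 9 libraries. The mean level of Trbc2 was 1424 CPM in T cells and 49.9 CPM in the other cells, a log2 ratio of 5.03 ± 1.03 (SD over 9 libraries, 10 CPM added on both sides). Lck had a log2 ratio of 4.07 ± 0.59 and Trac of 4.04 ± 0.51. Next to the receptor genes, the most T-biased genes were Ms4a4b, Cxcr6, Ccl5, Thy1, Nkg7 and Skap1. The chemokine receptor Cxcr6, known from resident and effector T cells, stood at 575, 460.2 and 359 CPM in WT vehicle, 555, 522 and 484 CPM in the libraries labelled WT AA, 386 and 489 CPM in Tg vehicle and 318 CPM in the library labelled Tg AA 1. The WT groups overlapped, and the library labelled Tg AA 1 was the lowest. The chemokine Ccl5, stored by memory and cytotoxic T cells, was the most abundant of these genes, with a mean of 5723 CPM in T cells and 392 CPM in other cells. No test is given for these ratios, because the rule chose the cells.

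At the edge of the rule, 270 cells had 2 Cd3 UMIs, of which 83.3% had a UMI of Trac, Trbc1 or Trbc2. Just outside it, 29.004% of the 924 cells with 1 Cd3 UMI did. The shares were 99.6% of the 17025 cells with 3 or more Cd3 UMIs and 9.67% of the 31895 cells with none. The 3114 skin cells under the same rule differed from the kidney cells in Trdc. Per library, 61.7% to 89.4% of them had neither Cd4 nor Cd8 UMIs, against 24.6% to 67.3% in the kidney, so these ranges overlapped. Their level of Trdc, the constant region of the δ chain, was 394 to 1602 CPM, against 12.7 to 82.7 CPM in kidney T cells. Tissue and the processing of the libraries cannot be told apart in this comparison.

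Markers of other kidney cells were present in the T cells at levels that varied between libraries. The summed level of 15 proximal tubule genes, among them Lrp2 and Slc34a1, was 26464, 12191 and 2233 CPM in T cells of WT vehicle and 1149, 3648 and 1503 CPM in those of the libraries labelled WT AA. It was 9978 and 4663 CPM in Tg vehicle and 2362 CPM in the library labelled Tg AA 1, and each of the 15 genes was detected in T cells of every library. In the other kept cells the same sum was 65886, 31712 and 14648 CPM in WT vehicle and 6309, 25821 and 7515 CPM in the libraries labelled WT AA, and the 6 WT libraries stood in the same order in T cells as in the other cells. The sum of 10 macrophage genes in T cells was 1469, 774 and 4138 CPM in WT vehicle, 3917, 649.9 and 1838 CPM in the libraries labelled WT AA, 1385 and 1132 CPM in Tg vehicle and 2752 CPM in the library labelled Tg AA 1, with C1qc at 0 in 2 libraries and the other 9 genes detected in each. C1qa, C1qb and C1qc are limited by the rule. Neutrophil genes were high in WT vehicle 2 and Tg vehicle 2 alone (1677 and 2593 CPM, against at most 193 CPM elsewhere). Erythroid genes reached 3089 CPM in WT vehicle 2, 564 CPM in WT AA 2 and 446 CPM in Tg vehicle 1, and at most 18.9 CPM elsewhere. B and plasma cell genes stayed between 49.2 and 309 CPM. The part of this RNA in the gene results below was not tested.

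**Figure D1:**
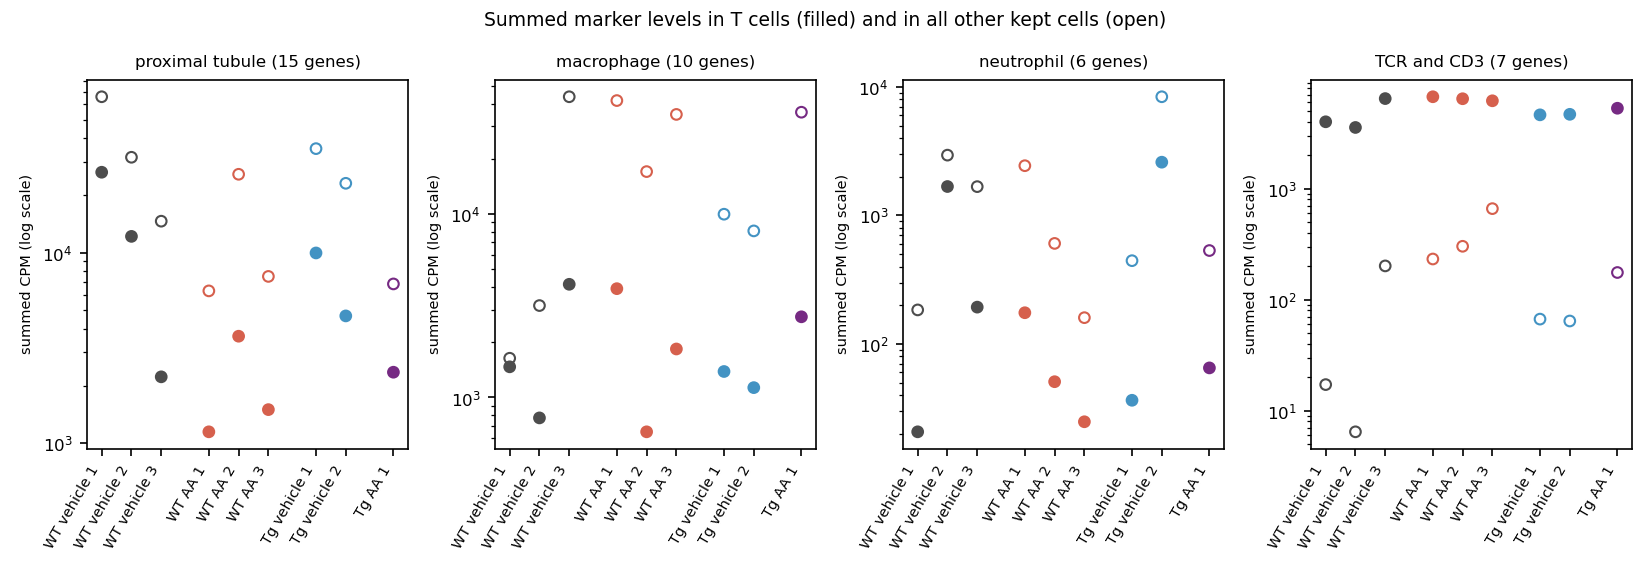
Summed CPM of 15 proximal tubule, 10 macrophage, 6 neutrophil and 7 T cell receptor and CD3 genes on a log axis, 1 pair of points per library, filled for T cells and open for all other kept cells. Receptor and CD3 genes sat between 3555 and 6722 CPM in T cells and at most 661 CPM in the other cells. In every library proximal tubule, macrophage and neutrophil genes were lower in T cells than in the other cells. Cd3d, Cd3e and Cd3g chose the cells and C1qa, C1qb and C1qc are limited by the rule, so these contrasts follow in part from the choice.

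The share of T cells among sorted cells was higher in the libraries labelled WT AA than in WT vehicle. T cells were 4.23, 4.83 and 47.5% of kept cells in WT vehicle 1 to 3 and 53.2, 49.4 and 60.4% in the libraries labelled WT AA 1 to 3. The groups did not overlap, but WT vehicle 3 lay close to the AA libraries and far from WT vehicle 1 and 2. The means were 18.9 ± 24.8% and 54.3 ± 5.57% (SD, n = 3 each), a difference of 35.5 percentage points with p = 0.1 in a two-sided exact permutation test over libraries, the smallest p that 3 against 3 can give. With WT vehicle 3 left out the difference was 49.8 points. In Tg vehicle the share was 16.5 and 13.8%, above WT vehicle 1 and 2 and below WT vehicle 3, and in the library labelled Tg AA 1 it was 30.6% (exact binomial 95% interval 29.5 to 31.7%, for counting error only). Permuting treatment within genotype over all 9 libraries gave a difference of 29.3 points and exact p = 0.0167 (60 assignments). That p rests on the genotype labels of WT AA 1 and Tg AA 1, which Zfyve9 goes against, and the share in the library labelled Tg AA 1 was below that of WT vehicle 3. Without these 2 libraries the WT difference was 36.02 points (exact permutation p = 0.2). A share of sorted cells depends on every other cell type in the sort. Of cells with a UMI of the leukocyte gene Ptprc, T cells with such a UMI were 27.96, 25.7 and 56.6% in WT vehicle, 58.8, 70.5 and 67.7% in the libraries labelled WT AA, 29.8 and 24.4% in Tg vehicle and 39.98% in the library labelled Tg AA 1. Among leukocytes the WT groups again did not overlap (difference 28.9 points, exact permutation p = 0.1).

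Most T cells with a lineage UMI were CD8, a count that depends on depth and leaves out the cells with neither UMI. Among CD4 and CD8 T cells, CD8 cells were 80.3, 62.3 and 79.8% in WT vehicle, 59.4, 74.8 and 60.2% in the libraries labelled WT AA, 72.5 and 77.4% in Tg vehicle and 74.8% in the library labelled Tg AA 1. WT vehicle 2 lay among the AA libraries, so the groups overlapped. The difference of −9.38 points (AA minus vehicle, exact permutation p = 0.2) was within the spread between libraries and ranged from −15.3 without WT vehicle 2 and −14.4 without WT AA 2 to −6.28 without WT vehicle 1. It was −5.15 points with every cell thinned to 1000 UMIs (exact permutation p = 0.5) and −3.85 without WT vehicle 3 and the 2 libraries whose Zfyve9 goes against the label. The thinned CD8 shares were 86.8, 76.9 and 90.1% in WT vehicle and 72.7, 87.3 and 78.4% in the libraries labelled WT AA, each above the unthinned share. Cd4 stood at a mean of 275 CPM in CD4 cells, against 903 CPM of Cd8b1 and 544 CPM of Cd8a in CD8 cells. CD4 cells were 9.12, 12.3 and 14.8% of T cells in WT vehicle and 26.8, 16.995 and 26.4% in the libraries labelled WT AA (means 12.1 ± 2.85% and 23.4 ± 5.55%), without overlap. After thinning to 1000 UMIs they were 4.03, 4.62 and 5.90% in WT vehicle and 12.4, 6.23 and 9.34% in the libraries labelled WT AA. WT AA 2 then lay just above WT vehicle 3. Cells with neither UMI were 53.1, 67.3 and 24.6% and 30.7, 29.99 and 28.1% in the same order, with WT vehicle 3 below the AA libraries, and 49.2 and 52.4% in Tg vehicle and 30.5% in the library labelled Tg AA 1. A cell with neither UMI may lack both transcripts or have missed them at its depth. With every cell thinned to 1000 UMIs and the rule applied again, the share with neither was 69.4, 80.0 and 40.03% in WT vehicle and 53.9, 50.7 and 56.4% in the libraries labelled WT AA. WT vehicle 1 and 2 were the highest of the WT libraries there too. Thinning matched total UMIs only. The 15 proximal tubule genes summed to 26464 and 12191 CPM in the T cells of those 2 libraries and to 1149 to 3648 CPM in those of the other WT libraries, and their part in the result was not tested. Tg vehicle then had 70.5 and 67.5% and the library labelled Tg AA 1 51.3%.

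**Figure D2:**
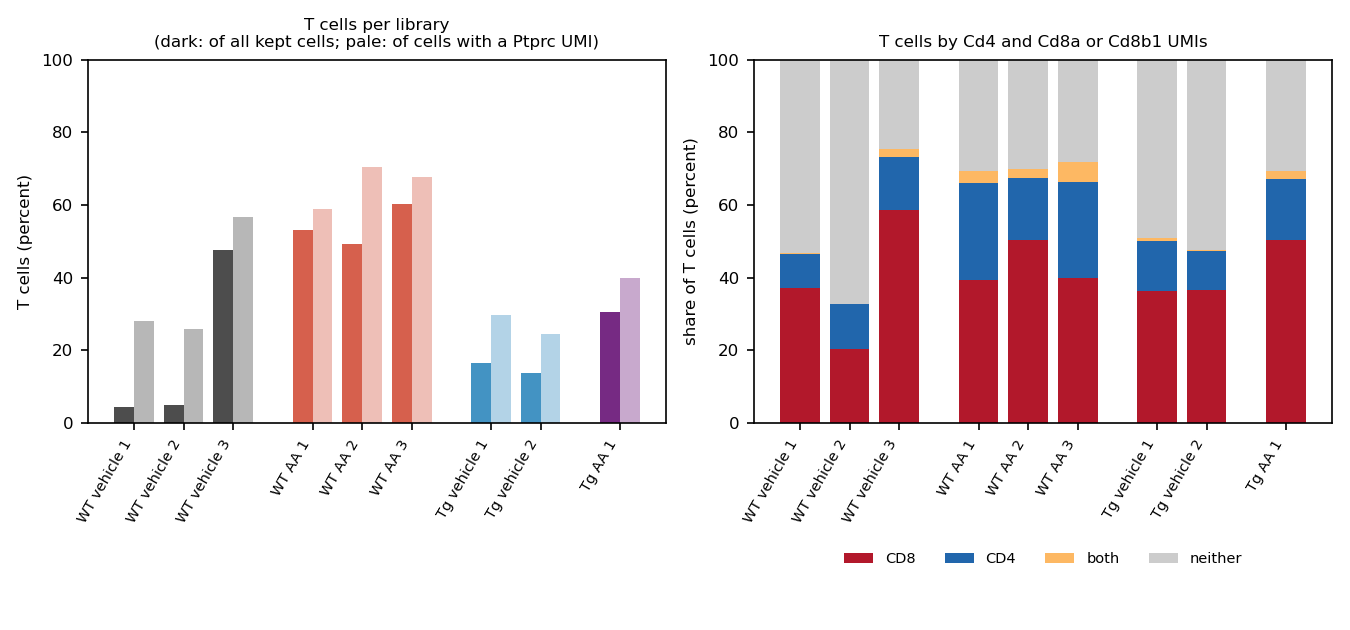
T cells as a percent of all kept cells (dark bars) and of cells with a Ptprc UMI (pale bars) in each library, and the make-up of the T cells by Cd4 and Cd8a or Cd8b1 UMIs (stacked bars, percent). WT vehicle 3 (47.5% of kept cells) sits near the libraries labelled WT AA (49.4% to 60.4%), and WT vehicle 1 and 2 (4.23% and 4.83%) sit below all others.

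CD8 and CD4 T cells of the same library differed in effector genes. Of the 16 genes listed as cytotoxic, 10 were higher in CD8 than in CD4 cells in 9 of 9 libraries, where 127 of 8335 genes (1.52%) with a mean of at least 10 CPM in either class were. Of 10 regulatory T cell genes 4 were lower in CD8 cells in all 9, where 338 of the 8335 (4.06%) were. Granzyme B (Gzmb) stood at a mean of 224 CPM in CD8 and 23.6 CPM in CD4 cells, a log2 ratio of 3.03 ± 1.14 (SD over 9 libraries). Klrd1, an NK receptor chain, had 262 and 34.8 CPM, and Ly6c2, a marker of memory CD8 cells, 252 and 48.3 CPM. Both were above 0 on the log2 scale in every library. Granzyme A (Gzma) varied far more, at 300.02, 525 and 439 CPM in CD8 cells of WT vehicle, 1718, 834 and 1542 CPM in those of the libraries labelled WT AA, 805 and 156 CPM in Tg vehicle and 2698 CPM in the library labelled Tg AA 1. In Tg vehicle 2 it was lower in CD8 than in CD4 cells, where it had 207 CPM. The chemokine Ccl5 was a gene of both classes, with means of 9204 CPM in CD8 and 3099 CPM in CD4 cells. Perforin (Prf1), Cd160, Cd7, Klrk1, Dapl1 and Atp8b4 had positive ratios in all 9 libraries, and Gzmk and Ccl4 in 8 and 7 of 9.

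On the CD4 side stood genes of help and of regulatory T cells. The costimulatory receptor Tnfrsf4 (OX40) had a mean of 167 CPM in CD4 and 15.7 CPM in CD8 cells (log2 ratio of CD4 over CD8 2.46 ± 0.77). Izumo1r, the folate receptor 4 of regulatory and anergic CD4 cells, had 102 and 11.1 CPM, and Cd40lg, the CD40 ligand of helper cells, 60.7 and 3.598 CPM. Ikzf2 (Helios), Icos and Ctla4, which mark regulatory or activated CD4 cells, were higher in CD4 cells in 9 of 9 libraries. The chemokine Ccl1 was higher in CD4 cells in 6 of 9 libraries and Cd74, the invariant chain of class II MHC, in 8 of 9. These are descriptions of classes cut by Cd4, Cd8a and Cd8b1 UMIs and carry no test.

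**Figure D3:**
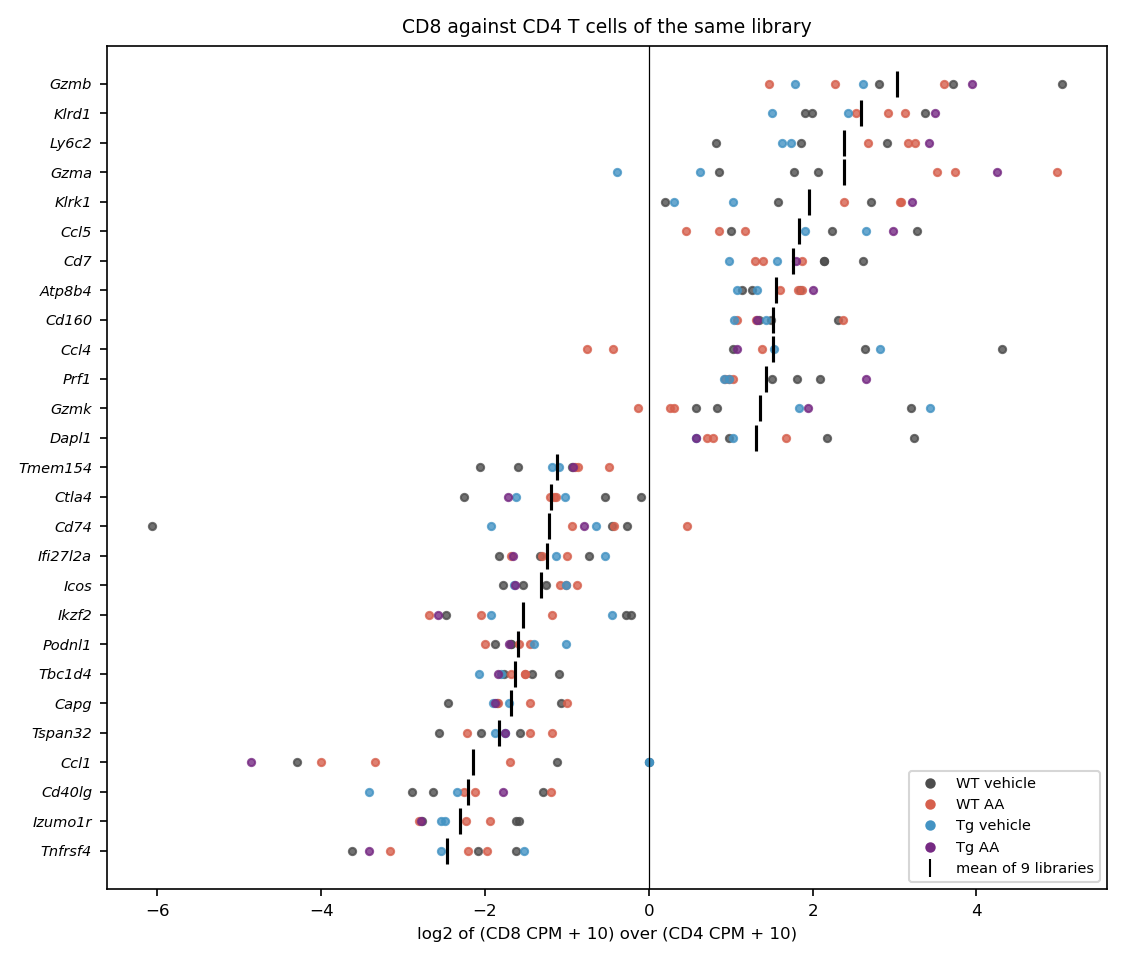
log2 of the CD8 level over the CD4 level (CPM + 10 on both sides) in the same library, for the genes with the largest mean ratio on either side apart from Cd4, Cd8a and Cd8b1. Colored points are the 9 libraries and black ticks their mean. Gzmb (3.03) and Klrd1 (2.59) lie right of 0 in all libraries, while Gzma, Ccl4 and Gzmk cross it in 1 or 2 libraries.

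Against CD8 cells, the cells with neither lineage UMI had more Tnfrsf4 (157 and 15.7 CPM), Cd40lg (54.4 and 3.598 CPM), Ikzf2, Podnl1 and Tbc1d4, all in 9 of 9 libraries. These 5 genes were also among the 15 leading genes of the CD4 class, both lists being chosen against CD8 cells, and the cells were not compared with CD4 cells. They also had more Trdc, at a mean of 71.2 CPM against 12.7 CPM, which belongs to γδ T cells, and more of the transcription factor Maf and of Tnfrsf18 (GITR). Their receptor type was not resolved further.

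Whether AA changed the T cells themselves was asked on summed UMIs per library. No gene passed the test in T cells: edgeR's quasi-likelihood test with Benjamini-Hochberg adjustment called 0 of 14078 genes at an adjusted p of 0.05 (0%), while 1948 genes (13.8%) had an unadjusted p under 0.05. DESeq2 called 259 (1.84%), of which 30 were higher (0.213%) and 229 lower (1.63%). Leaving out the single library WT vehicle 3 changed this count. Without it 2974 of 13658 genes (21.8%) were called, 1299 (9.51%) higher and 1675 (12.3%) lower in the libraries labelled WT AA. Of the 1299 higher calls 1151 were genes with a higher level in T cells than in the other kept cells, and of the 1675 lower calls 1564 (93.4%) were genes with a lower level there, 12 of the 15 proximal tubule genes among them. Among the 1299 higher calls were C1qa, C1qb and C1qc of 10 macrophage genes and Cd79b and Ighm of 4 B and plasma cell genes tested. Over the 6241 genes with a higher level in T cells, 819 (13.1%) were called without WT vehicle 3, 382 (6.12%) higher and 437 (7%) lower. Scaling on these genes alone moved the log2 fold changes of the 6240 genes in both fits by a median of −0.30. With all 9 libraries, 0 of 6437 such genes were called in edgeR's test, and 573 had an unadjusted p under 0.05. They are called T-biased genes below. The paragraphs that follow give levels, and none of the genes in them is said to have changed unless it passed. List medians there are scaled on all genes tested unless said otherwise, so a median near 0 can change sign with the scaling.

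Of genes higher in T cells than in other cells and without overlap between the WT groups, the 5 with the smallest p in each direction are named, and none passed (adjusted p = 0.333 in edgeR's test for each of the 10). Once WT vehicle 3 was left out, 9 of the 10 passed on the whole table (all but Arap2). Over T-biased genes 9 did (all but Rasgrp2). The genes were picked by their p in a fit that shares the other libraries, so these passes follow in part from the choice. They cannot be set against the shares of all genes called, 9.51% higher and 12.3% lower, or 6.12% and 7% over T-biased genes. The same holds below for genes named by this rule in CD4 and CD8 cells and for Tg vehicle. Values in parentheses after a gene's levels are log2 fold changes ± SE. The chemokine receptor Ccr9, known for homing to the gut (ENSMUSG00000029530, chromosome 9 from 123678439 to 123784330), stood at 30.8, 32.2 and 40.1 CPM in WT vehicle and at 93.8, 54.3 and 85.2 CPM in the libraries labelled WT AA. All 3 AA values lay above all 3 vehicle values, with a log2 fold change of 1.33 ± 0.24 (SE), and the adjusted p was 0.00593 in DESeq2 and 0.00597 in edgeR's test without WT vehicle 3. It was 43.5 and 48.3 CPM in Tg vehicle and 47.98 CPM in the library labelled Tg AA 1, so the library labelled Tg AA 1 lay at the level of Tg vehicle. Xcl1, the chemokine by which activated CD8 and NK cells attract cross-presenting dendritic cells (ENSMUSG00000026573, chromosome 1 from 164931644 to 164935527), stood at 142, 166 and 201 CPM in WT vehicle and at 295, 337 and 389.5 CPM in the libraries labelled WT AA, at 96.3 and 98.8 CPM in Tg vehicle and at 428 CPM in the library labelled Tg AA 1. Here all 4 libraries labelled AA lay above all 5 vehicle libraries, with a log2 fold change in WT of 1.18 ± 0.23. The share of all genes split in this way was not counted, here or below for Zbtb16 and Cd48. Runx3, a transcription factor of CD8 and resident T cells, stood at 125, 99.2 and 111 CPM in WT vehicle and at 156, 206 and 237 CPM in the libraries labelled WT AA (1.03 ± 0.23). The membrane protein Tmc8 (1.30 ± 0.25) and Rasgrp2, an activator of the small GTPase Rap in integrin control (0.59 ± 0.14), were the other higher genes.

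Among the lower genes, Il12rb2, the signaling chain of the interleukin-12 receptor (ENSMUSG00000018341, chromosome 6 from 67291318 to 67376188), stood at 22.5, 26.9 and 7.26 CPM in WT vehicle and at 2.76, 3.898 and 2.304 CPM in the libraries labelled WT AA. WT vehicle 3 was the lowest vehicle library and still above every AA library, with a log2 fold change of −2.39 ± 0.45 (SE, DESeq2 adjusted p = 0.00278). Tg vehicle had 15.2 and 11.5 CPM and the library labelled Tg AA 1 3.13 CPM, so the order of treatment was the same there. Klrc2, an activating NK receptor chain, stood at 88.7, 62.1 and 28.98 CPM in WT vehicle and at 13.4, 22.8 and 18.5 CPM in the libraries labelled WT AA (−1.45 ± 0.35). The log2 fold change was −1.72 ± 0.51 for Klra9, a Ly49 receptor, −1.85 ± 0.51 for Lyst, a regulator of lysosomal granules, and −0.50 ± 0.14 for Arap2. Klrc2 and Klra9 belong to receptor families with near-identical copies, so reads may be split between members. Within CD4 cells and within CD8 cells the WT groups overlapped for these genes, while Arap2 was lower without overlap in both classes. Il12rb2 was lower without overlap in CD4 cells only, and Lyst in CD8 cells only.

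Receptor and signaling genes were read as a group next. All 7 subunits of the T cell receptor and CD3 complex had a positive fold change (median log2 0.61, against a median near 0 over all genes). Cd3d, Cd3e and Cd3g chose the cells, so nothing is read from their part in this. Of the other 4, Cd247, Trac, Trbc1 and Trbc2, 0 passed and 1, Cd247, had an unadjusted p under 0.05, where 13.8% of all genes did. Cd247, the ζ chain, stood at 68.02, 56.8 and 125 CPM in WT vehicle and at 159, 149 and 158 CPM in the libraries labelled WT AA (1.03 ± 0.34, adjusted p = 0.333 in edgeR's test), and Trac at 319, 287 and 739 CPM in WT vehicle and at 672, 517 and 609 CPM in the libraries labelled WT AA. For Trac WT vehicle 3 was the highest library of all. When WT vehicle 3 was left out, the 4 genes outside the rule passed, where 9.51% of genes were called higher, and over T-biased genes alone Cd247, Trac and Trbc2 did, where 6.12% were. Of 11 kinases, adaptors and costimulatory receptors next to the receptor, 10 were above 0 (median 0.47) and 0 passed. The kinase Lck, which phosphorylates CD3, stood at 349, 284 and 390.5 CPM in WT vehicle and at 481, 535 and 442 CPM in the libraries labelled WT AA with 0.69 ± 0.22. In the fit without WT vehicle 3, 7 of the 11 passed, among them Lck, Lat and Cd6, and 6 over T-biased genes.

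Genes that place T cells in tissue or in recirculation did not move together. Of 15 genes of effector, memory and resident cells 10 were above and 5 below 0 (median 0.19), and 0 passed. The integrin chain Itgae (CD103), which binds epithelial E-cadherin (ENSMUSG00000005947, chromosome 11 from 73090583 to 73147446), stood at 6.51, 7.95 and 88.6 CPM in WT vehicle and at 109, 73.9 and 80.5 CPM in the libraries labelled WT AA, at 11.7 and 10.8 CPM in Tg vehicle and at 51.6 CPM in the library labelled Tg AA 1. The other 4 vehicle libraries were at or below 11.7 CPM, and WT vehicle 3 lay within the AA range. The log2 fold change was 1.30 ± 0.87 (adjusted p = 0.524 in edgeR's test) with all libraries and 3.86 (adjusted p = 0.00193) without WT vehicle 3. The resident cell genes Cd69 and Itga1 did not follow Itgae. Cd69 stood at 154, 183 and 188 CPM in WT vehicle and at 149, 128 and 126 CPM in the libraries labelled WT AA (−0.21 ± 0.18) and Itga1, the collagen-binding α1 integrin, at 143, 144 and 114 CPM in WT vehicle and at 95.6, 116 and 90.5 CPM in the libraries labelled WT AA (−0.20 ± 0.15). Of these, Itga1 was called lower without WT vehicle 3 over T-biased genes, with Ahnak, where 7% of genes were. S100a4 and Prdm1 were called higher with Itgae without WT vehicle 3 on the whole table, where 9.51% were. Of 10 naive and central memory genes 8 were above 0 (median 0.68), 4 had an unadjusted p under 0.05, where 13.8% of all genes did, and 0 passed. Il7r, the interleukin-7 receptor, stood at 183, 207 and 436 CPM in WT vehicle and at 475, 376 and 363 CPM in the libraries labelled WT AA and was the only one of the list called without WT vehicle 3, where 9.51% of all genes were called higher.

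Granule and chemokine genes of cytotoxic cells were above 0 in 13 of 16 (median 0.37), with 0 passed. Gzma stood at 291, 214 and 306 CPM in WT vehicle and at 784, 454 and 701 CPM in the libraries labelled WT AA, at 507 and 142 CPM in Tg vehicle and at 1442 CPM in the library labelled Tg AA 1. The WT groups did not overlap, and the fold change was 1.42 ± 0.46 (adjusted p = 0.333 in edgeR's test, DESeq2 0.0615). Gzmb, by contrast, stood at 144, 43.2 and 144 CPM in WT vehicle and at 152, 96.4 and 106 CPM in the libraries labelled WT AA (0.23 ± 0.48) and Prf1 at 56.2, 21.2 and 57.5 CPM in WT vehicle and at 50.1, 41.997 and 28.2 CPM in the libraries labelled WT AA (−0.03 ± 0.39), and the groups overlapped for both. The chemokines Ccl3 and Ccl4, which attract leukocytes, stood at 23.1, 11.7 and 20.1 CPM in WT vehicle and at 91.2, 25.3 and 74.97 CPM in the libraries labelled WT AA for Ccl3 and 122, 44.3 and 103 CPM in WT vehicle and at 312, 123 and 257 CPM in the libraries labelled WT AA for Ccl4. Neither overlapped between the groups. Their fold changes were 1.95 ± 0.50 and 1.52 ± 0.45, with an adjusted p of 0.333 in edgeR's test and of 0.0231 and 0.0483 in DESeq2. The list held 3 genes without overlap on the higher side and 1 on the lower side, where 4.58% and 8.5% of all genes tested were. Without WT vehicle 3, 6 were called higher (Nkg7, Ccl4, Ccl3, Ctsw, Klrd1 and Eomes) and Klrk1 lower, where 9.51% and 12.3% of all genes were. Over T-biased genes only Ctsw was called higher and only Klrk1 lower, where 6.12% and 7% were.

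Foxp3 and the inhibitory receptor Pdcd1 overlapped between the WT groups through WT vehicle 3, and the other vehicle libraries were below every library labelled AA. That order leaves out a library singled out after its values were seen. The share of all genes with it was not counted. Foxp3, the transcription factor of regulatory T cells (ENSMUSG00000039521, chromosome X from 7573644 to 7595245), stood at 1.77, 1.89 and 18.5 CPM in WT vehicle and at 13.8, 26.8 and 38.05 CPM in the libraries labelled WT AA, at 9.11 and 7.12 CPM in Tg vehicle and at 36.7 CPM in the library labelled Tg AA 1. WT vehicle 3 lay within the AA range. The fold change was 1.68 ± 0.82 (adjusted p = 0.397 in edgeR's test) and 4.12 (adjusted p = 0.00745) without WT vehicle 3. Of the 10 regulatory genes 9 were above 0 (median 0.65) and 0 passed. With WT vehicle 3 left out, 4 passed, Foxp3, Ctla4, Tnfrsf18 and Tnfrsf4, on the whole table (9.51% of genes called higher) and over T-biased genes (6.12%). The interleukin-2 receptor chain Il2ra stood at 10.1, 18.9 and 11.4 CPM in WT vehicle and at 11.04, 11.7 and 27.8 CPM in the libraries labelled WT AA and was not called either way. Pdcd1 (PD-1), which dampens receptor signaling, stood at 21.3, 3.79 and 141 CPM in WT vehicle and at 142, 31.1 and 63.8 CPM in the libraries labelled WT AA, at 6.07 and 10.2 CPM in Tg vehicle and at 65.7 CPM in the library labelled Tg AA 1. WT vehicle 3 and the library labelled WT AA 1 had the highest levels, and the fold change was 0.47 ± 1.04 (adjusted p = 0.873 in edgeR's test) with all libraries and 3.03 (adjusted p = 0.0405 in edgeR's test) without WT vehicle 3. Of 9 tested genes of inhibitory receptors 8 were above 0, 0 passed, and without WT vehicle 3 Pdcd1, Tox, Ctla4 and Cd101 did, or all but Tox over T-biased genes, against the same shares of all genes.

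Over all T cells, type 1 helper, type 17 and γδ, and innate-like genes had medians below 0, and CD4 and CD8 cells apart did not always share the sign. Of 7 type 1 helper genes 6 were below 0 (median −0.40), of 14 type 17 and γδ genes 13 (median −0.95) and of 9 innate-like genes 8 (median −1.32). None of the 3 lists held a gene that passed. In CD4 cells alone, 5 of 9 tested type 17 and γδ genes were above 0 (median 0.82), against medians of −0.46 for type 1 and −0.40 for innate-like genes. In CD8 cells alone, 4 of 7 type 1 genes were above 0 (median 0.20), against −0.22 and −0.35 for the other lists. Interferon-γ (Ifng) stood at 90.5, 76.5 and 25.2 CPM in WT vehicle and at 33.4, 19.6 and 30.01 CPM in the libraries labelled WT AA (−0.94 ± 0.37), where WT vehicle 3 overlapped the AA libraries. Tbx21 (T-bet), its transcription factor, stood at 39.6, 43.9 and 21.6 CPM in WT vehicle and at 27.1, 30.4 and 30.1 CPM in the libraries labelled WT AA (−0.02 ± 0.21). Of the type 17 and γδ genes 4 were lower without overlap between the WT groups (Il23r, Rora, Il1r1 and Sox13), where 8.5% of all genes were. The interleukin-23 receptor Il23r was at 4.73, 2.65 and 0.3596 CPM in WT vehicle and at 0.113, 0.251 and 0.358 CPM in the libraries labelled WT AA, levels of few UMIs, and Rora, a nuclear receptor of type 17 and innate lymphoid cells, was at 103, 129 and 79.5 CPM in WT vehicle and at 76.01, 57.5 and 70.8 CPM in the libraries labelled WT AA (−0.40 ± 0.15). Trdc stood at 59.1, 55.3 and 12.7 CPM in WT vehicle and at 31.03, 12.7 and 14.7 CPM in the libraries labelled WT AA, with WT vehicle 3 at the lower end. Zbtb16 (PLZF), the factor of natural killer T and other innate-like T cells (ENSMUSG00000066687, chromosome 9 from 48654297 to 48836222), stood at 14.8, 23.1 and 4.46 CPM in WT vehicle and at 3.604, 0.8802 and 1.08 CPM in the libraries labelled WT AA, at 10.5 and 9.91 CPM in Tg vehicle and at 1.698 CPM in the library labelled Tg AA 1. All 4 libraries labelled AA were below all 5 vehicle libraries, and the WT fold change was −2.62 ± 0.66 (adjusted p = 0.333 in edgeR's test, DESeq2 0.0161). The NK receptor Klrb1c (NK1.1) stood at 13.01, 27.7 and 5.61 CPM in WT vehicle and at 4.56, 5.03 and 3.38 CPM in the libraries labelled WT AA (−1.56 ± 0.47). Xcl1, on the same list, was its only member above 0. Within CD4 cells and within CD8 cells, the WT groups overlapped for Zbtb16, Klrb1c, Il23r, Il1r1 and Sox13. Rora was lower without overlap in both classes. The part of the class shares in the levels over all T cells was not tested. The T cells of WT vehicle 1 and 2 number 373 and 486. Their sums of 6 NK genes (183 and 233 CPM) were within the range of the libraries labelled WT AA (342, 83.9 and 179 CPM). Of these 6 genes, 3 had a fold change above and 3 below 0. Without WT vehicle 3, Eomes was called higher and Ncr1 and Klrb1c lower, where 9.51% and 12.3% of all genes were. Ncr1 and Klrb1c are also on the innate-like list, and the part of NK cells was not tested. Without WT vehicle 3, 2 type 1, 3 type 17 and γδ and 4 innate-like genes were called lower on the whole table, where 12.3% were. Tcrg-C2 and Xcl1 were called higher there, where 9.51% were. Over T-biased genes, 4 type 1, 4 type 17 and γδ and 4 innate-like genes were called lower, where 7% of genes were. Xcl1 was called higher, where 6.12% were.

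Genes of antigen presentation and interferon response were above 0 as groups. All 9 class I genes were (median 0.66), 0 passed, and without WT vehicle 3 all but H2-Q7 did, where 9.51% of genes were called higher, and 6 over T-biased genes, where 6.12% were. B2m, the light chain of class I MHC, stood at 1237, 1242 and 2433 CPM in WT vehicle and at 2332, 2143 and 2164 CPM in the libraries labelled WT AA, and H2-D1 at 1126, 1346 and 3168 CPM in WT vehicle and at 3301, 2528 and 2831 CPM in the libraries labelled WT AA. For both, WT vehicle 1 and 2 were the lowest and WT vehicle 3 was within or above the AA libraries. The peptide-cleaving immunoproteasome subunit Psmb9 stood at 208, 156 and 478 CPM in WT vehicle and at 419.9, 434 and 372 CPM in the libraries labelled WT AA and the class I activator Nlrc5 at 26.02, 15.5 and 31.8 CPM in WT vehicle and at 36.99, 39.1 and 54.1 CPM in the libraries labelled WT AA, which did not overlap between the groups (0.97 ± 0.32). Of 18 interferon-stimulated genes 16 were above 0 (median 0.45), 0 passed and 3 were higher without overlap, where 4.58% of all genes were. Once WT vehicle 3 was left out, 8 of the 18 passed, and over T-biased genes 4 of 14 did (Isg20, Zbp1, Irgm1 and Slfn2), against 9.51% and 6.12% of all genes. Isg20, an exonuclease against viral RNA, stood at 21.3, 22.7 and 97.1 CPM in WT vehicle and at 94.3, 69.8 and 107 CPM in the libraries labelled WT AA (0.97 ± 0.60). All 19 tested cytokine, chemokine receptor and cytokine receptor genes were above 0 (median 0.52), 7 had an unadjusted p under 0.05, where 13.8% of all genes did in either direction, 6 were higher without overlap, where 4.58% were, and 0 passed. When WT vehicle 3 was left out, 9 passed (Il2, Tnf, Lta, Il27ra, Tgfbr2, Cxcr4, Cxcr5, Ccr9 and Ccr8), where 9.51% of all genes were called higher, and 6 of 13 over T-biased genes, where 6.12% were. Tumor necrosis factor (Tnf) stood at 19.5, 11.4 and 37.3 CPM in WT vehicle and at 38.5, 62.5 and 74.6 CPM in the libraries labelled WT AA (1.44 ± 0.48, adjusted p = 0.333 in edgeR's test), and Il27ra, the interleukin-27 receptor, at 42.6, 58.7 and 80.9 CPM in WT vehicle and at 112, 103 and 131 CPM in the libraries labelled WT AA (1.06 ± 0.28). Tgfbr2, the receptor chain that binds TGF-β, stood at 52.6, 53.4 and 73.1 CPM in WT vehicle and at 82.6, 76.4 and 77.1 CPM in the libraries labelled WT AA (0.55 ± 0.21), 84.98 and 83.3 CPM in Tg vehicle and 71.4 CPM in the library labelled Tg AA 1. Tg vehicle lay above every WT library, and the WT groups did not overlap. The ligand Tgfb1 stood at 82.8, 70.1 and 78.4 CPM in WT vehicle and at 88.9, 68.4 and 106 CPM in the libraries labelled WT AA (0.37 ± 0.19).

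Targets of p53, the response to DNA damage that AA adducts raise, were on both sides of 0 in T cells. Of 16 targets 9 were above and 7 below 0 (median 0.20) and 0 passed. Cdkn1a (p21) stood at 19.5, 6.44 and 37.3 CPM in WT vehicle and at 28.2, 29.8 and 35.4 CPM in the libraries labelled WT AA, at 6.07 and 8.05 CPM in Tg vehicle and at 95.5 CPM in the library labelled Tg AA 1, which was the highest. Phlda3 stood at 1.77, 1.52 and 9.56 CPM in WT vehicle and at 7.601, 8.299 and 8.71 CPM in the libraries labelled WT AA, 2.02 and 1.55 CPM and 27.2 CPM in the same order of groups. For both, WT vehicle 3 had the highest level of the 6 WT libraries, and the vehicle libraries apart from it were at or below 19.5 CPM for Cdkn1a. Bbc3 (PUMA) stood at 12.4, 9.85 and 149 CPM in WT vehicle and at 103, 30.4 and 24.6 CPM in the libraries labelled WT AA and was highest in WT vehicle 3. In the fit without WT vehicle 3, 5 of the 16 were called higher on the whole table, among them Cdkn1a (1.63) and Phlda3 (2.62), where 9.51% of all genes were, and 0 of 5 over T-biased genes, where 6.12% were. Of 15 proliferation genes 11 were above 0 (median 0.14, or −0.029 when scaled on T-biased genes) and 0 passed. Without WT vehicle 3, the median was 0.66, Pcna, Mcm6, Cdk1 and Tubb5 were called higher on the whole table, and Pcna over T-biased genes, against the same 9.51% and 6.12%. Pcna stood at 10.6, 13.3 and 24.1 CPM in WT vehicle and at 26.01, 30.8 and 30.5 CPM in the libraries labelled WT AA (0.94 ± 0.35) and Mki67 at 79.8, 62.1 and 85.6 CPM in WT vehicle and at 72.6, 21.9 and 54.1 CPM in the libraries labelled WT AA (−0.46 ± 0.41), with opposite signs. Of the remaining lists, 5 of 10 mitochondrially encoded genes were lower without overlap, where 8.5% of all genes were, and 0 passed. Without WT vehicle 3, mt-Nd1 and mt-Nd4 were called lower, where 12.3% of all genes were. The 5 type 2 helper genes tested had a median of 0.26. The 16 immediate early and heat shock genes, which tissue digestion also raises, had a median of 0.05. Of them Egr1 was called higher and Fosb and Jun lower without WT vehicle 3, where 9.51% and 12.3% of all genes were. Of the 15 proximal tubule genes all were below 0 (median −2.60), 11 with an unadjusted p under 0.05 and 0 past the test.

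**Figure D4:**
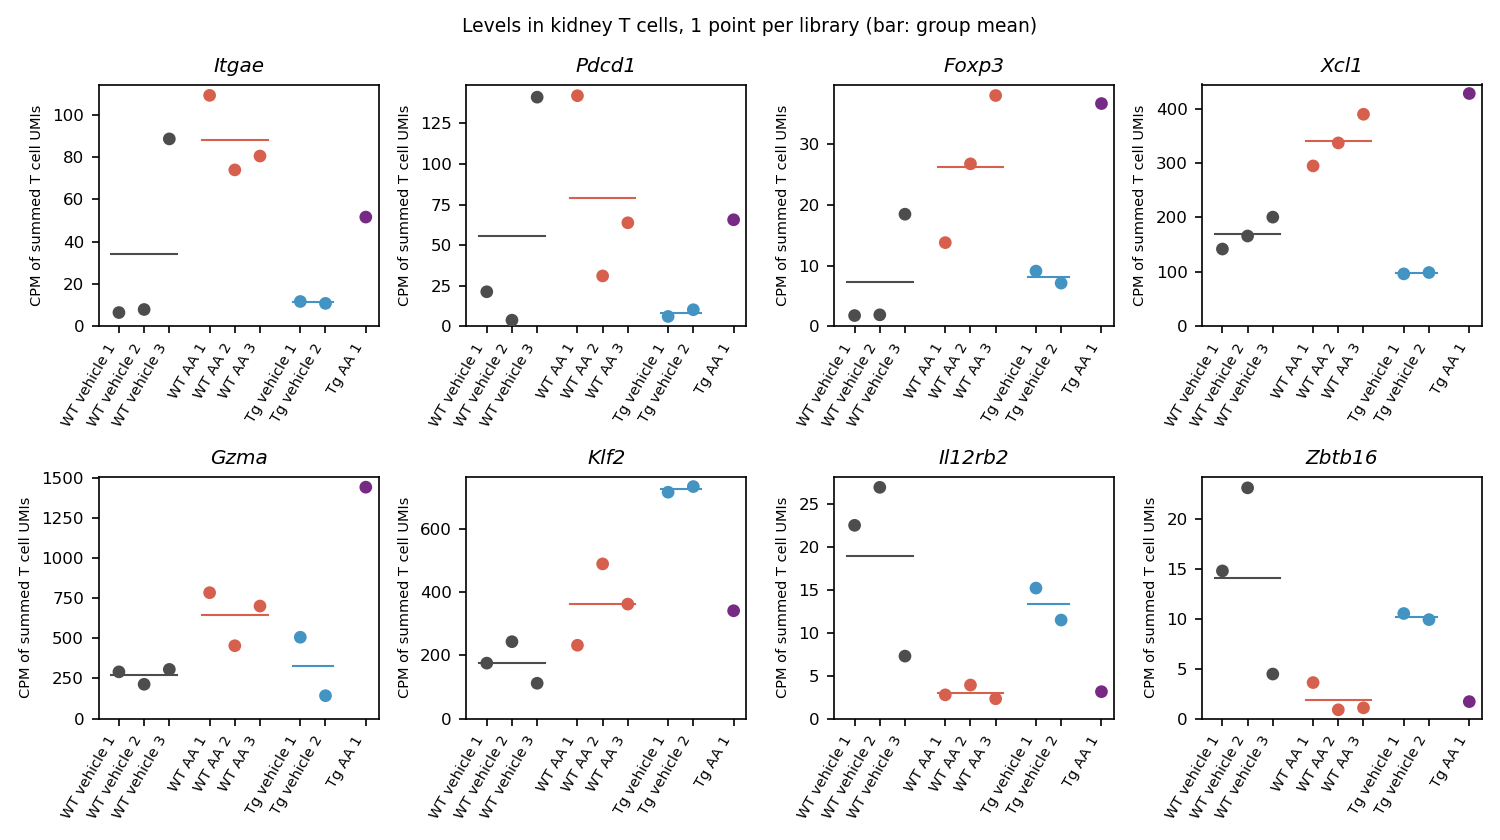
CPM of 8 genes in the summed T cells of each library, 1 point per library with a bar at the mean of each group of 2 or 3. Xcl1 and Gzma are higher, and Il12rb2 and Zbtb16 lower, in all 3 libraries labelled WT AA than in all 3 WT vehicle libraries. For Itgae, Pdcd1 and Foxp3 the third WT vehicle library lies with the AA libraries, and Klf2 is highest in Tg vehicle (715 and 733 CPM).

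CD4 and CD8 T cells were then compared apart. In CD4 cells 0 of 10951 genes (0%) passed edgeR's test, 778 (7.1%) reached an unadjusted p under 0.05, and 5 (0.0457%) were called by DESeq2, all lower in the libraries labelled WT AA. With WT vehicle 3 left out, 50 of 10290 passed (0.486%), 19 higher (0.185%) and 31 lower (0.301%). Over 5175 T-biased genes 81 passed there (1.57%), 53 higher (1.02%) and 28 lower (0.541%). Over all genes tested in CD4 cells, 5.15% were higher and 8.5% lower without overlap between the WT groups. WT vehicle 1 and 2 rest on 34 and 60 CD4 cells. The 5 genes named by the same rule on the lower side were all of cell division. Mki67, a marker of cycling cells (ENSMUSG00000031004, chromosome 7 from 135689784 to 135716361), stood at 239, 185 and 141 CPM in WT vehicle and at 89.3, 53.6 and 54.8 CPM in the libraries labelled WT AA (−1.28 ± 0.25, adjusted p = 0.694 in edgeR's test, DESeq2 0.0499). All AA values were below all vehicle values, though Tg vehicle, with 16.01 and 28.4 CPM, was lower still and the library labelled Tg AA 1 had 145 CPM. The topoisomerase Top2a (−1.04 ± 0.24), the nucleotide reductase Rrm2 (−1.48 ± 0.35), the spindle factor Tpx2 (−1.47 ± 0.33) and Pclaf (−1.16 ± 0.28) had the same order in WT. Of 15 proliferation genes 14 were below 0 (median −0.59), 6 with an unadjusted p under 0.05, where 7.1% of all genes did, and 0 passed with all libraries or without WT vehicle 3 on the whole table. Over T-biased genes without WT vehicle 3, Mki67, Top2a and Rrm2 were called lower, and Cd27 and Rps27rt higher. On the higher side, the costimulatory receptor Cd27 stood at 67.6, 41.2 and 76.9 CPM in WT vehicle and at 118, 183 and 161 CPM in the libraries labelled WT AA (1.42 ± 0.30), and Clec2d, a ligand of NK receptors, at 229, 156 and 158 CPM in WT vehicle and at 229.97, 453 and 393 CPM in the libraries labelled WT AA (1.21 ± 0.29). Rps27rt, a ribosomal gene with near-identical copies, Saraf and the amino acid transporter Slc38a2 were the others. Foxp3 in CD4 cells stood at 10.4, 0 and 46.3 CPM in WT vehicle and at 16.97, 50.7 and 52.3 CPM in the libraries labelled WT AA, and Ccl5 at 1347, 927 and 4145 CPM in WT vehicle and at 7679, 3746 and 5459.8 CPM in the libraries labelled WT AA, where WT vehicle 3 lay within the AA range for both.

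In CD8 cells 0 of 12942 genes (0%) passed edgeR's test, 1360 (10.5%) reached an unadjusted p under 0.05, and 131 (1.01%) were called by DESeq2, 6 higher (0.0464%) and 125 lower (0.966%). Once WT vehicle 3 was left out, 1405 of 12325 passed (11.4%), 574 higher (4.66%) and 831 lower (6.74%). Over 5410 T-biased genes 150 passed there (2.77%), 72 higher (1.33%) and 78 lower (1.44%). Among the lower calls on the whole table were 8 of 15 proximal tubule and 4 of 5 erythroid genes. All 5 erythroid genes counted as T-biased here, by a mean over libraries that includes WT vehicle 2. All 5 were among the 78 lower calls over T-biased genes. The erythroid genes summed to 11441 CPM and the distal nephron genes to 1247 CPM in the CD8 cells of WT vehicle 2, and to at most 1105 and 335 CPM in those of any other library. Their part in the calls was not tested. Without overlap between the WT groups, 4.54% of genes tested were higher and 8.73% lower. Cd48, a ligand of CD2 and 2B4 that takes part in T cell costimulation (ENSMUSG00000015355, chromosome 1 from 171682009 to 171705258), stood at 145, 162 and 183 CPM in WT vehicle and at 262, 284 and 289.9 CPM in the libraries labelled WT AA (0.95 ± 0.20, adjusted p = 0.458 in edgeR's test, DESeq2 0.0208). It was 196 and 233 CPM in Tg vehicle and 361 CPM in the library labelled Tg AA 1, again with all 4 AA libraries above all 5 vehicle libraries. The others on the higher side were Grcc10, Rpl36al, AI467606 and Slc38a2, the last as in CD4 cells. When WT vehicle 3 was left out, Cd48 (adjusted p = 0.0134 in edgeR's test), Rpl36al, AI467606 and Slc38a2 passed on the whole table, and of the 5 Cd48 passed over T-biased genes. On the lower side, Mki67 stood at 109, 107 and 63.3 CPM in WT vehicle and at 49.5, 13.99 and 42.1 CPM in the libraries labelled WT AA (−1.16 ± 0.39) and the linker histone Hist1h1b at 205, 166 and 85.7 CPM in WT vehicle and at 59.8, 23.4 and 58.04 CPM in the libraries labelled WT AA (−1.44 ± 0.47). The phosphatase Ssh2, Lyst and Avl9 had fold changes of −0.58 ± 0.18, −0.64 ± 0.21 and −0.48 ± 0.17. In the fit without WT vehicle 3, none of these 5 passed on the whole table, and Hist1h1b, Lyst and Avl9 did over T-biased genes. Of 15 proliferation genes 9 were above 0 in CD8 cells (median 0.01), and 0 passed. Itgae in CD8 cells stood at 11.9, 11.3 and 113 CPM in WT vehicle and at 148, 114 and 110.4 CPM in the libraries labelled WT AA, the same split of WT vehicle 3 from WT vehicle 1 and 2 as in all T cells. Cytotoxic genes were above 0 in 14 of 16 in CD8 cells (median 0.32) and 12 of 15 in CD4 cells (median 0.87), with 0 passed in either. Without WT vehicle 3, Ctsw, Klrd1 and Klrk1 were called higher and Gzmm lower in CD8 cells, where 4.66% and 6.74% of genes were. Over T-biased genes Klrk1 was no longer called, where 1.33% were called higher and 1.44% lower. In CD4 cells Ccl5 was called higher, where 0.185% were, and Ccl5 and Ccl4 over T-biased genes, where 1.02% were. A difference of the AA effect between CD4 and CD8 cells was not tested.

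The transgene was compared in vehicle-treated kidneys, as Tg vehicle minus WT vehicle. No gene passed in T cells: edgeR's test called 0 of 14078 (0%), 1153 (8.19%) reached an unadjusted p under 0.05, and 34 (0.242%) were called by DESeq2, 20 higher (0.142%) and 14 lower (0.0994%). This contrast shares its WT vehicle libraries with the AA contrast. Genes of naive and recirculating T cells stood higher in Tg vehicle. All 10 genes of that list were above 0 (median 1.94, against −0.088 over all genes), 7 had an unadjusted p under 0.05, and 8 did not overlap between the groups, where 6.98% of all genes tested were higher without overlap. Without WT vehicle 3 the median was 1.76 and 0 passed. Their summed level was 813, 972 and 795 CPM in WT vehicle, 2337 and 2181 CPM in Tg vehicle, 972, 1596 and 1129 CPM in the libraries labelled WT AA and 855 CPM in the library labelled Tg AA 1. Both Tg vehicle libraries exceeded all others. Klf2 (ENSMUSG00000055148, chromosome 8 from 72319033 to 72321656), which drives the exit receptor S1pr1, stood at 175, 243 and 112 CPM in WT vehicle, 715 and 733 CPM in Tg vehicle, 232, 488 and 361 CPM in the libraries labelled WT AA and 340.5 CPM in the library labelled Tg AA 1. The fold change was 2.20 ± 0.36 (SE, adjusted p = 0.458 in edgeR's test, DESeq2 5.61e-05). The lymph node homing receptor Ccr7 stood at 18.3, 30.7 and 26.8 CPM in WT vehicle and 148 and 97.5 CPM in Tg vehicle (2.38 ± 0.53), and Lef1, a Wnt pathway factor of naive cells, at 60.9, 67.4 and 48.3 and 203 and 163 CPM (1.78 ± 0.46). WT AA 2, with 89.1 CPM of Ccr7, came closest to Tg vehicle.

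Of the genes named by the rule, Rasgrp2 (ENSMUSG00000032946, chromosome 19 from 6399340 to 6415216) came nearest to the threshold. It stood at 41.4, 44.7 and 33.01 CPM in WT vehicle and 94.9 and 104 CPM in Tg vehicle (1.46 ± 0.15, adjusted p = 0.0729 in edgeR's test, DESeq2 4.00e-09). It passed without WT vehicle 3 over T-biased genes (adjusted p = 0.0353), where 7 of 6241 genes (0.112%) did, 6 higher (0.0961%) and 1 lower (0.016%), and missed the threshold without it on the whole table (adjusted p = 0.064). Bach2, a repressor that keeps T cells quiescent, stood at 9.46, 9.47 and 9.49 and 33.4 and 27.6 CPM (1.79 ± 0.28). Tmem71 (1.29 ± 0.24) and Scai (0.98 ± 0.19) were the other higher genes. On the lower side, the histones Hist1h1b (−2.67 ± 0.64) and Hist1h1e (−1.12 ± 0.26), Podnl1 (−1.70 ± 0.38), the lysosomal protein Cln3 (−1.63 ± 0.36) and Mthfsd (−0.92 ± 0.21) were named, none past the test. Of 15 proliferation genes 14 were below 0 (median −1.02) and 10 did not overlap, where 14.8% of all genes were lower without overlap. Mki67 stood at 79.8, 62.1 and 85.6 CPM in WT vehicle and 30.96 and 17.3 CPM in Tg vehicle (−1.53 ± 0.49, adjusted p = 0.61 in edgeR's test). Of 9 inhibitory receptor genes 8 were below 0 (median −1.35) and of 16 cytotoxic genes 15 (median −0.30), while the T cell receptor and CD3 genes had a median of 0.10, or −0.0036 when scaled on T-biased genes, with the 3 genes of the rule among them. With WT vehicle 3 left out the inhibitory median was −0.05, the cytotoxic one had the opposite sign at 0.06 and the proliferation one was −0.41. The 8 endothelial genes moved with this contrast as well, all above 0 without overlap (summed 21.9, 44.3 and 60.2 CPM in WT vehicle T cells and 226 and 142 CPM in Tg vehicle T cells). Their part in the result was not tested.

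**Figure D5:**
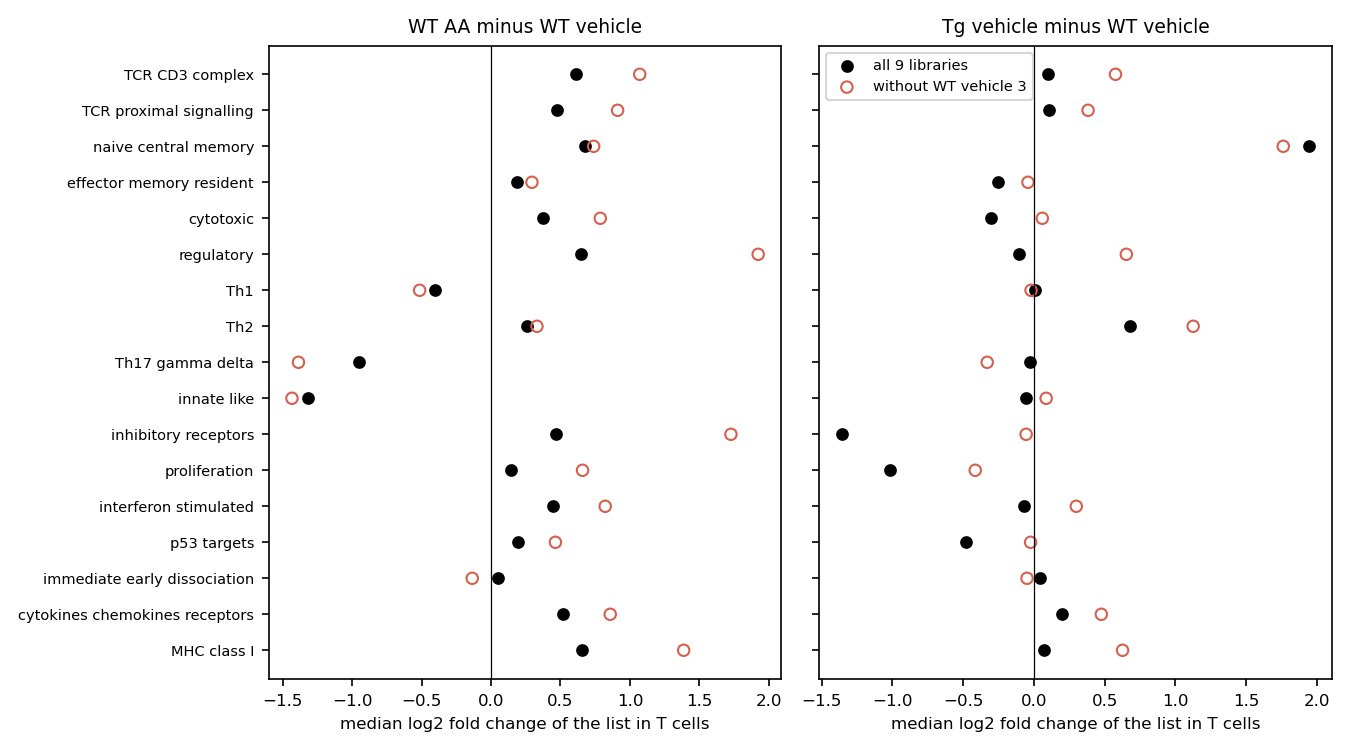
Median log2 fold change of each gene list in T cells for the libraries labelled WT AA minus WT vehicle (left) and Tg vehicle minus WT vehicle (right), filled with all 9 libraries and open without WT vehicle 3. Naive and central memory genes stand at 1.94 on the right with all 9 libraries. When WT vehicle 3 is left out, inhibitory receptors move there from −1.35 to −0.05, and on the left the regulatory list moves from 0.65 to 1.92.

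The difference of the AA effect between the genotypes rests on 1 library labelled Tg AA, which is assumed to vary like the other groups, and on 2 libraries whose Zfyve9 goes against the label. edgeR's test called 0 of 14078 genes (0%), 911 (6.47%) reached an unadjusted p under 0.05, and 10 (0.071%) were called by DESeq2, 3 higher (0.0213%) and 7 lower (0.0497%). In edgeR's test 5 genes were called without WT vehicle 2 and 0 without any other single library. On simulated counts this fit recovered none of the genes made to differ, so its lack of calls says nothing on whether the AA effects differ. In the library labelled Tg AA 1 the summed naive and central memory genes lay within the range of WT vehicle (855 CPM). Klf2 was 340.5 CPM and Ccr7 28.2 CPM there. This library had the highest T cell levels of Gzma (1442 CPM), Xcl1 (428 CPM) and Tnfrsf4 (213 CPM) of all 9. For the difference of the AA effect (Tg minus WT) the 10 naive and central memory genes were all below 0 (median log2 value −2.56). Of 15 proliferation genes 14 were above 0 (median 1.83). This difference subtracts the Tg vehicle libraries, in which the same lists had medians of 1.94 and −1.02 against WT vehicle. The signs are therefore not independent of that contrast.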

How the data were processed

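Droplet libraries (10x 3' chemistry) of GFP+ cells were deposited by the authors as raw UMI counts per gene and barcode, made with Cell Ranger 3.0.2 by the kidney file headers and on mm10 by the submitters' processing notes, which also name Seurat 2.3.4. All 31053 genes and 75562 kidney barcodes in the files were read, and the 8 skin libraries served only for the same-rule count. Barcodes were kept from 200 detected genes up, with a mitochondrial share of no more than 20%. The T cell rule and 30 lists of 310 genes were chosen with earlier results of these data known. Counts of T cells, and of CD4 and CD8 T cells, were summed per library. Summed counts of all 9 libraries were fitted with edgeR 4.0.16 in R 4.3.3 (TMM scaling, filterByExpr, quasi-likelihood test of the group terms, Benjamini-Hochberg adjustment over all genes tested), and DESeq2 1.42.0 was an alternative. DESeq2 set no adjusted p for part of these genes by its own filters, and its percentages here are of all genes tested. Levels are CPM of the summed counts. Shares were compared by two-sided exact permutation over libraries with scipy 1.17.1. 

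Genes outside the lists were named by 1 rule: no overlap between the groups, a mean of at least 10 CPM, a higher level in T cells than in other kept cells, up to 10 per direction past an adjusted p of 0.05 or, where fewer than 3 passed, up to 5 with the smallest p. Class descriptions took the 15 largest mean log2 ratios with at least 50 CPM in the higher class. Positions are from GENCODE vM21 on GRCm38. Doublets predicted by scrublet (scanpy 1.11.5, at 0.8% per 1000 cells) were left in and removed as an alternative. Fits were tested on simulated counts with 200 genes changed, of which part was recovered for each comparison of 2 groups and none for the difference of the AA effect. Same-numbered WT vehicle and AA libraries did not deviate together throughout (r = −0.383, 0.243 and 0.219 over 2679 genes), so they were not paired. Some list members are not reported here by name.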

Additional observations from a re-analysis of the deposited data

How the results depend on the processing

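The direction of the T cell share difference held under a stricter cell filter, at least 3 Cd3 UMIs and thinning to 1000 UMIs. It also held on removal of predicted doublets or of shared barcodes and with Ptprc+ cells as denominator. The exact permutation p was 0.1 in each of these settings, the smallest that 3 against 3 libraries can give. The side of the threshold could therefore not change in them, and nothing is read from it. Permuting over all 9 libraries gave 29.3 points past the threshold. Leaving out 1 library each gave 28.2 to 49.8 points for the T cell share and −15.3 to −6.28 points for the CD8 share. Gene calls moved more. In T cells DESeq2 called 259, no filter on low counts 1, and leaving out 1 library each gave 0 to 2974, the highest without WT vehicle 3. In CD4 cells these settings gave 5, 155 and 0 to 50, in CD8 cells 131 with DESeq2 and 0 to 1405, for Tg vehicle 34 with DESeq2, 1 over genes higher in T cells and 0 to 0, and for the difference of the AA effect 10 with DESeq2 and 0 to 5, the highest without WT vehicle 2. The following were chosen after seeing the data. Without WT vehicle 3 and over genes higher in T cells, 819, 81, 150 and 7 genes were called in T, CD4 and CD8 cells and for Tg vehicle. Without WT vehicle 3 and the 2 libraries whose Zfyve9 goes against the label, 2445, 34, 906 and 108 were called, and the WT AA log2 fold change of Zfyve9 turned to −2.01; Bbc3 turned to 1.63 there, and leaving out 1 library each moved it from −1.04 to 2.52, the latter without WT vehicle 3. Of 2538 values of single genes under 22 alternatives, 2229 kept direction and side, 176 passed the threshold, 130 changed sign without being called and these 3 reversed. The causes were not tested. 

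The replicate numbers do not mark a stated pairing, and the closest libraries by deviation had different numbers (WT vehicle 1 and WT AA 2, r = 0.525). With the replicate block the T cell share difference was 35.5 points (exact p = 0.25, the smallest possible), the CD8 share difference −9.38 points (exact p = 0.5) and the gene counts 0 in T cells, 2 in CD4 cells, 0 in CD8 cells, 0 for Tg vehicle and 0 for the difference of the AA effect. The CD4 sums of WT vehicle 1 and 2 rest on 34 and 60 cells.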

Other observations

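Single genes split the libraries across groups. H2-Q7, a nonclassical class I gene of the Qa-2 family with near-identical copies, stood in T cells at 10.1, 615 and 607 CPM in WT vehicle, 1651, 12.8 and 720.01 CPM in the libraries labelled WT AA, 648 and 468 CPM in Tg vehicle and 717 CPM in the library labelled Tg AA 1. WT vehicle 1 and WT AA 2 were low, and H2-Q6 was lowest in the same libraries (18.9 and 25.7 CPM, against 88.2 CPM or more elsewhere). 

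Gm10260 stood in T cells at 732, 9.47 and 559 CPM in WT vehicle, 8.39, 833 and 522 CPM in the libraries labelled WT AA, 4.05 and 4.03 CPM in Tg vehicle and 514 CPM in the library labelled Tg AA 1. It was at 4.03 to 9.47 CPM in WT vehicle 2, the library labelled WT AA 1 and both Tg vehicle libraries, and at least 514 CPM in the others. These genes were chosen after their values were seen.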
